A study of Mus musculus with 10 samples.

Results

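Heat shock proteins, DnaJ co-chaperones, chaperonin subunits and heat shock factors were followed in mouse testis after trichostatin A (TSA), an inhibitor of histone deacetylases. The probes were taken by symbol: those with 1 gene symbol beginning with Hspa to Hsph, Hsp90, Dnaja, Dnajb, Dnajc, Cct2 to Cct8 or Hsf and a digit, and Tcp1. The pattern found 66 of the 8983 probes that carried 1 symbol, for 64 genes of the 8841 genes so named, out of 10012 probes on the array. Cct4 and Dnajc1 had 2 probes each. The pattern also took in Hspg2, which encodes the matrix proteoglycan perlecan, and Hsf2bp and Hspbp1, which encode partners of HSF2 and of Hsp70. Male BALB/c mice aged 9 weeks had been split into 5 groups of 3. Control mice were injected with the carrier, dimethylsulfoxide in PBS, and were killed at 10 h. The other groups were given TSA under the skin once, at 60 µg per mouse, and were killed 2.5, 5, 7.5 or 10 h later. The RNA of each group was pooled before hybridisation, so a group is 1 pool (n = 1) read on 2 technical arrays, and differences between mice cannot be seen. Of the TSA pools, that of 10 h alone was matched in time to the control.

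Chaperones of the Hsp70 family bind unfolded stretches of other proteins in a cycle driven by ATP. DnaJ proteins deliver clients to Hsp70 and start ATP hydrolysis, and Hsp110 proteins and other exchange factors reset it. Hsp90 acts later on kinases and receptors, small heat shock proteins hold unfolded proteins in solution, and the TRiC ring folds actin and tubulin inside a chamber. Heat shock factors bind to repeated nGAAn units in the promoters of many of these genes. Spermatogenesis uses forms that other tissues express weakly or not at all. HSPA2 is made in meiotic spermatocytes and is needed for male meiosis, HSPA1L appears in spermatids, and HSPA4L is an Hsp110 form enriched in germ cells. CCT6B is the testis counterpart of the TRiC subunit CCT6A, and DNAJB3, DNAJB8, DNAJC5B and HSPB9 are further germ cell forms.

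The promoters are shown here for genes whose values are described below, namely the Hsp70 gene lowest against the control, its heat-inducible neighbour, the DnaJ gene that rose, and a co-chaperonin gene with clustered heat shock elements. Sequences are from RefSeq (build GRCm38.p6), run 5′ to 3′ on the gene's strand and, for the first 3, cover the 250 bases before the annotated start. Capitals mark heat shock element cores, searched for as GAANNTTC and TTCNNGAA, each of which reads the same on both strands, with overlapping matches counted. Hspa1l lies at chr17:34972453-34972702 (plus strand), Hspa1a at chr17:34972157-34972406 (minus strand), Dnajc15 at chr14:77874918-77875167 (minus strand), and the stretch of Hspe1 at chr1:55088053-55088082 (plus strand).
Hspa1l: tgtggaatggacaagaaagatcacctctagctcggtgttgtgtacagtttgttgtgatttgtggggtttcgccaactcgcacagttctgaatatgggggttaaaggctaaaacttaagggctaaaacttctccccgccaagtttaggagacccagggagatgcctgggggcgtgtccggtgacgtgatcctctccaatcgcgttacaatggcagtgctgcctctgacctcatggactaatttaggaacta
Hspa1a: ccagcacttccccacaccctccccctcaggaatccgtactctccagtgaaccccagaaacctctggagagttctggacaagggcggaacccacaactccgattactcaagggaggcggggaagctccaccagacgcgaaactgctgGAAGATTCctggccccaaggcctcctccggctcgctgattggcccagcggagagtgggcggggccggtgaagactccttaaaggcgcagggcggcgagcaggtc
Dnajc15: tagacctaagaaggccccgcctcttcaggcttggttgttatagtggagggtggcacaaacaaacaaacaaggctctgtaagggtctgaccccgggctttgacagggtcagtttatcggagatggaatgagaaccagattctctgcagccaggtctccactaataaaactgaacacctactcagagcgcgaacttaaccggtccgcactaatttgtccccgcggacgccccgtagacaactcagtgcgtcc
Hspe1: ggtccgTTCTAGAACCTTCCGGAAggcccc
Hspa1l and Hspa1a are transcribed away from each other, with 546 bases between their starts. Hspa1a had 1 core, beginning 104 bases before its start, and Hspa1b shared 247 of these 250 bases with it, without gaps. The 30 bases of Hspe1 hold 3 overlapping cores, which begin 89, 84 and 79 bases before the start. They also lie in a promoter window of Hspd1, which is transcribed the other way and shares 285 bases of window with Hspe1. In the windows of 250 bases before to 50 after each start, a core was found for 15 of the 53 member genes with a listed promoter (28.3%). Of all 27025 genes in the table, 17.0% had one. These matches describe letters, not binding.

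Values are deposited normalised intensities, on a linear scale with an array median of 1.00, and probes differ in efficiency, so levels are compared between pools for a probe and not between probes. Duplicate arrays correlated at 0.995 to 0.998 across probes. After the dimmest 25% of probes were left out, 58 of the 66 probes remained. The 8 others (Hsf4, Hspb2, Hspb3, Hspg2, Dnajc2, Dnajc6, Dnajc22 and 1 probe of Dnajc1) had mean intensities under 0.207 and are not described further. The tissue label was borne out by germ cell markers: 21 of 21 measured spermatid markers and 14 of 15 measured spermatocyte markers passed the same filter. In the 5 h pool the markers of liver stood far above the other pools. Their summed intensity, over 50 of 60 listed genes of which 0 were at 0, was 275 to 277 at 5 h and 36.0 to 40.6 elsewhere. At 5 h, 20 of 28 tested ones were over 2-fold higher, where 1.21% of all probes were. The filter used the mean of all arrays, so liver markers bright only at 5 h could pass it through that pool. The summed intensity does not depend on the filter.

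Few chaperone probes left the range of the control by 2-fold. At 2.5 h, 0 of 58 were at least 2-fold higher or lower with both arrays beyond both control arrays, where 0.674% of all 7422 probes were higher and 0.243% lower (0.916% in all). At 5 h, 0 of 58 met the rule, where 1.21% of all probes were higher and 0.337% lower (1.55% in all). At 7.5 h, 2 of 58 (3.45%) met it, Dnajc15, higher (1.01% of all probes were), and Hspa1l, lower (0.903%), against 1.91% in all. At 10 h, 1 of 58 (1.72%) met it, Hspa1l, lower, where 1.44% of all probes were lower and 1.23% higher (2.67% in all). In the test of the 4 TSA pools against the control pool, 1 of 58 probes passed, which was Dnajc15, higher, against 2.74% of all probes higher and 0.795% lower, 3.53% in all (limma, adjusted p under 0.05). The trend over hours, with the control at 0 h, was passed by 1 of 58, the falling Hspb7, against 1.66% of all probes falling and 0.350% rising, 2.01% in all. Every one of these counts is at most 2 of 58, near the share of all probes. At an unadjusted p under 0.05, 18 of 58 (31.0%) passed the TSA test, against 28.3% of all probes, and 10 (17.2%) the trend, against 25.1%. Without the 5 h pool, which held the liver transcripts, both limma counts were 0 of 58, where 3 of all 7422 probes passed the TSA test and 41 the trend. Both counts were also 0 of 58 when any 1 of the other TSA pools was left out, where 3 to 7 of all probes passed the TSA test and 0 to 29 the trend. With 1 control pool, the TSA test assumes for it the spread seen among the treated pools. The trend sets at 0 h a control that was killed at 10 h. Of the TSA pools, only that of 10 h had a control of its time. TSA and time since injection therefore cannot be told apart in the trend.

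**Figure D1:**
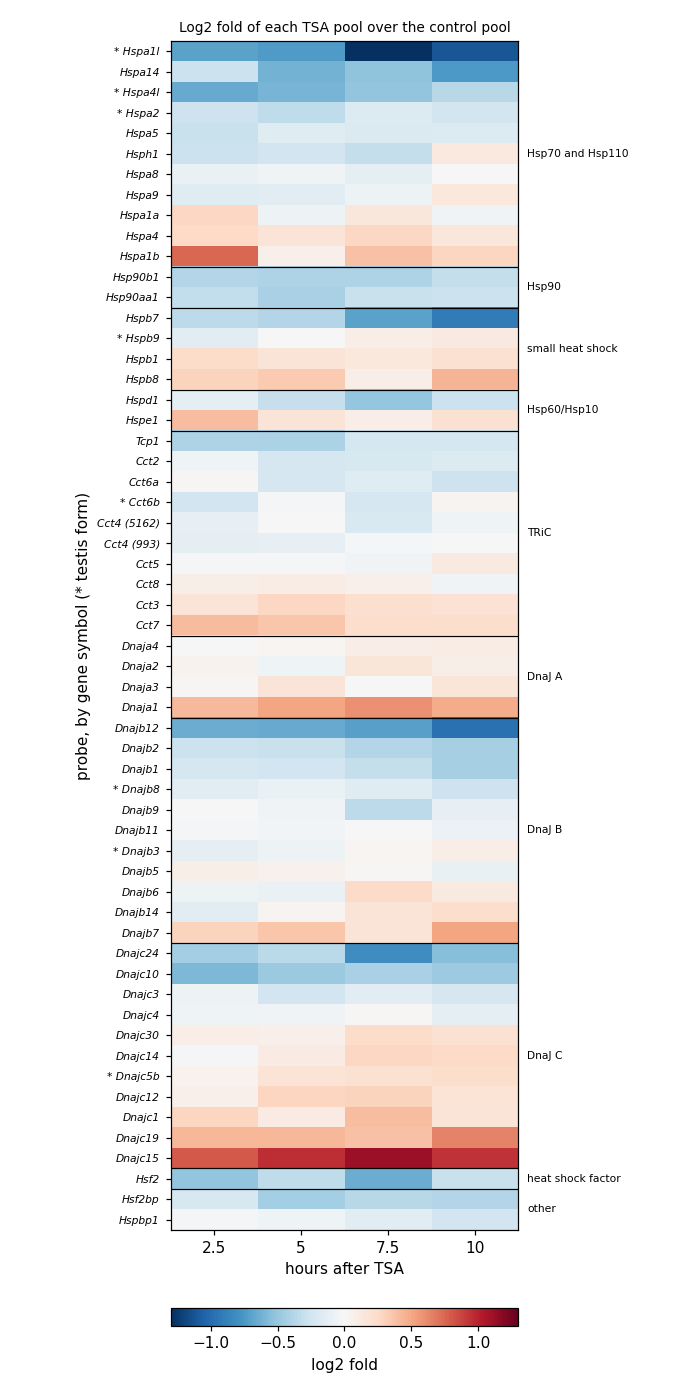
Log2 fold of each TSA pool over the control pool for the 58 tested probes (rows, grouped by family, with testis forms starred) at 2.5, 5, 7.5 and 10 h (columns), blue for lower and red for higher. Most rows are pale. Hspa1l is the bluest row in every column, Dnajb12 is blue throughout, Hspb7 darkens towards 10 h, and Dnajc15 is the reddest row at all 4 times.

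Of the Hsp70 forms of germ cells, Hspa1l was lowest against the control. The probe sequences were not used here, so reading of the related Hspa1a and Hspa1b transcripts by the Hspa1l probe could not be checked. The intensity of Hspa1l (probe 5988) was 4.53 and 4.08 on the control arrays, 2.62 and 2.70 at 2.5 h, 2.68 and 2.47 at 5 h, 1.73 and 1.78 at 7.5 h, and 2.06 and 1.92 at 10 h. All 8 TSA arrays lay below both control arrays, and the 7.5 h and 10 h arrays lay below those of 2.5 and 5 h. Its log2 folds were -0.69 ± 0.08, -0.74 ± 0.097, -1.29 ± 0.08 and -1.11 ± 0.093, where ± is the standard error from duplicate arrays and holds no spread between mice. The control was 2.45-fold above the 7.5 h pool and 2.16-fold above the 10 h pool. The mean difference of the TSA pools from the control was -0.96 ± 0.24 (limma, adjusted p = 0.0735), and the slope was -0.113 ± 0.0244 log2 units per hour (limma, adjusted p = 0.0647). Neither passed 0.05. The slope passed in 6 of 24 alternatives, and without the control pool it was -0.0724 (limma, adjusted p = 0.277). Over its alternatives the adjusted p of the TSA test ran from 0.0025 to 0.164 and passed in 6 of 23. For both tests the passes include fits that count technical duplicates as samples. Without the 5 h pool the difference was -1.03 (limma, adjusted p = 0.103). With an offset before the logarithm the 10 h log2 fold was -0.95, short of 2-fold. The markers of spermatids, in which Hspa1l is known to be expressed, had a summed intensity of 1088 to 1123 in the control and 1177 to 1234 at 10 h. Of those 21 markers, 0 passed the TSA test and 1, Tcp11, fell in the trend, a call that ended with no filter on dim probes and without the control, 2.5, 7.5 or 10 h pool, and their median log2 fold at 10 h was 0.15. Their part in the Hspa1l values was not tested. In pooled tissue RNA, fewer cells of a type and less RNA per cell cannot be told apart.

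Hspa4l, the germ cell Hsp110 form, stood below the control throughout, most at 2.5 h. Its intensity was 7.58 and 7.52 on the control arrays, 4.56 and 5.04 at 2.5 h, 5.02 and 4.94 at 5 h, 5.48 and 5.12 at 7.5 h, and 5.91 and 5.85 at 10 h. All TSA arrays were below both control arrays, and the pool means were higher at each later time. The log2 folds were -0.66 ± 0.073, -0.60 ± 0.013, -0.51 ± 0.049 and -0.36 ± 0.0091, with a mean difference of -0.53 ± 0.14 (limma, adjusted p = 0.0793). Hspa2, the meiotic form, read 44.7 and 38.3 on the control arrays, 33.4 and 35.6 at 2.5 h, 34.1 and 32.0 at 5 h, 37.1 and 36.3 at 7.5 h, and 36.0 and 34.2 at 10 h. All TSA arrays were below both control arrays, but the control arrays lay further apart than the TSA pool means did. Its mean difference was -0.25 ± 0.11 (limma, adjusted p = 0.203), and without the first control array -0.14. Markers of spermatocytes, a list that includes Hspa2, had a summed intensity of 466 to 471 in the control and 420 to 425 at 10 h. Their median log2 folds were -0.15, -0.22, -0.18 and -0.33 at 2.5, 5, 7.5 and 10 h. Of 14 tested, 0 passed the TSA test and 1 fell in the trend, against 1.66% of all probes. By the 2-fold rule 1 was lower at 10 h, against 1.44% of all probes. Their part in the Hspa2 and Hspa4l values was not tested.

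By mean difference the general Hsp70 genes lay nearer the control than Hspa1l and Hspa4l or above it, apart from Hspa14. Hspa5, at -0.20, was little nearer than the testis form Hspa2, at -0.25. At 2.5 h Hspa5 was the lower of these, with a log2 fold of -0.29 against -0.26. Hspa8, the constitutive cytosolic form, had intensities of 23.0 and 23.2 on the control arrays, 21.7 and 21.9 at 2.5 h, 22.4 and 22.3 at 5 h, 22.2 and 20.2 at 7.5 h, and 22.5 and 23.5 at 10 h, and its mean difference was -0.064 ± 0.11 (limma, adjusted p = 0.733). Its arrays spanned a narrow range in all 5 pools. Hspa1a and Hspa1b encode the heat-inducible Hsp70 and are near-identical copies, so their probes may each read both. Hspa1b had intensities of 1.46 and 1.42 on the control arrays, 2.44 and 2.39 at 2.5 h, 1.52 and 1.497 at 5 h, 1.92 and 1.83 at 7.5 h, and 1.84 and 1.66 at 10 h. The 2.5 h arrays were the highest, with a log2 fold of 0.74 ± 0.025, and every TSA array was above both control arrays, those of 5 h by the least. Hspa1a had intensities of 1.89 and 1.68 on the control arrays, 2.10 and 2.20 at 2.5 h, 1.77 and 1.65 at 5 h, 1.97 and 1.97 at 7.5 h, and 1.87 and 1.59 at 10 h, highest at 2.5 h as well, with a log2 fold of 0.27 ± 0.088 there and of -0.048 ± 0.14 at 10 h. Mean differences were 0.37 ± 0.24 (limma, adjusted p = 0.347) for Hspa1b and 0.076 ± 0.16 (limma, adjusted p = 0.783) for Hspa1a. Neither inducible copy met the 2-fold rule at any time.

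**Figure D2:**
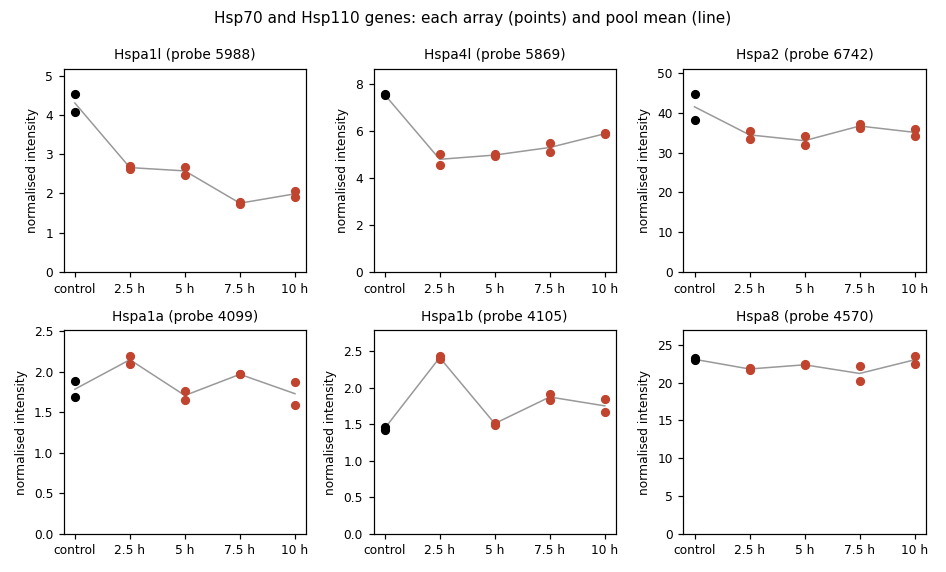
Normalised intensity (linear axis from 0) of 6 Hsp70 and Hsp110 genes on each array, as points, against pool, with a line through the pool means. Control points are black and TSA points red. The Hspa1l and Hspa4l points after TSA lie well under the control points, those of Hspa8 stay near them, and Hspa1b peaks at 2.5 h.

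Of the organelle forms, Hspa5, the Hsp70 of the endoplasmic reticulum, read 20.1 in the control pool and 16.4, 18.0, 17.6 and 17.8 at 2.5, 5, 7.5 and 10 h. All TSA arrays were below the control arrays, with a mean difference of -0.20 ± 0.11 (limma, adjusted p = 0.282). Hspa9, the mitochondrial form, read 16.0 in the control pool and 14.3, 14.5, 15.2 and 17.6 at 2.5, 5, 7.5 and 10 h, with a mean difference of -0.058 ± 0.14 (limma, adjusted p = 0.818). Its TSA arrays lay below the control up to 7.5 h and above it at 10 h. Hspa14, a form associated with the ribosome, had pool means of 3.54 in the control pool and 2.93, 2.32, 2.46 and 2.12 at 2.5, 5, 7.5 and 10 h, below the control at all 4 times. Its mean difference was -0.54 ± 0.18 (limma, adjusted p = 0.120) and its slope -0.0695 ± 0.0164 per hour (limma, adjusted p = 0.0757). The slope passed in 5 of 24 alternatives, which include fits that count technical duplicates as samples. Of the general Hsp110 genes, Hspa4 was above the control on all 8 TSA arrays, with a mean difference of 0.21 ± 0.11 (limma, adjusted p = 0.268). Hsph1 stood at -0.18 ± 0.19 (limma, adjusted p = 0.560). The Hsp110 genes Hspa4 and Hspa4l lay on opposite sides of the control in all pools. Over the 11 tested Hsp70 and Hsp110 genes, 8 estimates were below 0 and 3 above, with a median of -0.18, where the median of all 7422 probes was -0.018, and 0 passed the test in either direction.

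The other listed testis forms stayed close to the control. Hspb9, a small heat shock protein of germ cells, read 67.9 and 65.8 on the control arrays, 58.7 and 63.1 at 2.5 h, 67.9 and 65.5 at 5 h, 70.1 and 72.3 at 7.5 h, and 75.7 and 69.6 at 10 h. The 2.5 h pool was the lowest and the 10 h pool the highest, a spread of -0.13 to 0.12 in log2 fold. Dnajb3, a DnaJ protein of spermatids, read 136 and 136 on the control arrays, 127 and 124 at 2.5 h, 132 and 128 at 5 h, 136 and 140.2 at 7.5 h, and 148 and 139 at 10 h, again lowest in the 2.5 h pool and highest in the 10 h pool. Dnajc5b, a cysteine string protein, read 45.7 and 45.5 on the control arrays, 45.5 and 48.9 at 2.5 h, 52.4 and 51.2 at 5 h, 50.9 and 53.9 at 7.5 h, and 53.8 and 52.9 at 10 h. Its 5, 7.5 and 10 h arrays were above the control arrays and its 2.5 h arrays straddled them. Dnajb8 read 7.98 and 8.28 on the control arrays, 7.40 and 7.29 at 2.5 h, 7.27 and 8.04 at 5 h, 7.42 and 7.17 at 7.5 h, and 7.21 and 6.32 at 10 h, with the lowest array at 10 h. Cct6b read 22.9 and 23.6 on the control arrays, 19.4 and 19.6 at 2.5 h, 23.1 and 23.0 at 5 h, 20.7 and 19.3 at 7.5 h, and 23.6 and 24.2 at 10 h. Its 2.5 h and 7.5 h arrays were below the control and its 5 h and 10 h arrays were not. Mean differences of these 5 ran from -0.16 for Dnajb8 to 0.16 for Dnajc5b, and limma adjusted p from 0.393 to 0.941.

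Listed testis forms were then set beside the other tested members. The others were not sorted by tissue and are not all general forms, as Hsf2bp, whose product acts in meiotic recombination, is among them. Dnajb7, also among them, had the highest mean difference of the Dnajb genes, 0.34 ± 0.15 (limma, adjusted p = 0.198). Of the 11 listed testis forms 8 were measured, and Dnajb13, Dnajc5g and Hsf5 were not analysed here. Of the 8, 6 had a mean difference below 0 and 2 above, with a median of -0.14, and 0 passed the test. Of the other 50 tested probes, 26 were below 0 and 24 above, with a median of -0.045, and 1 passed, higher. At single times the median log2 fold of the testis forms was -0.20, -0.076, -0.17 and -0.099, and that of the other members -0.025, -0.048, -0.017 and -0.023. All 8 TSA arrays were below both control arrays for 3 of the 8 testis forms (Hspa1l, Hspa2 and Hspa4l) and for 15 of the 50 others, against 23.0% of all probes. They were above for 0 and 9, against 22.2% of all probes. The 3 lowest estimates among testis forms were those of Hspa1l, Hspa4l and Hspa2. The other estimates were -0.16 for Dnajb8, -0.11 for Cct6b, -0.018 for Dnajb3, 0.018 for Hspb9 and 0.16 for Dnajc5b. The list was chosen with results of these data known and the difference between the lists was not tested.

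**Figure D3:**
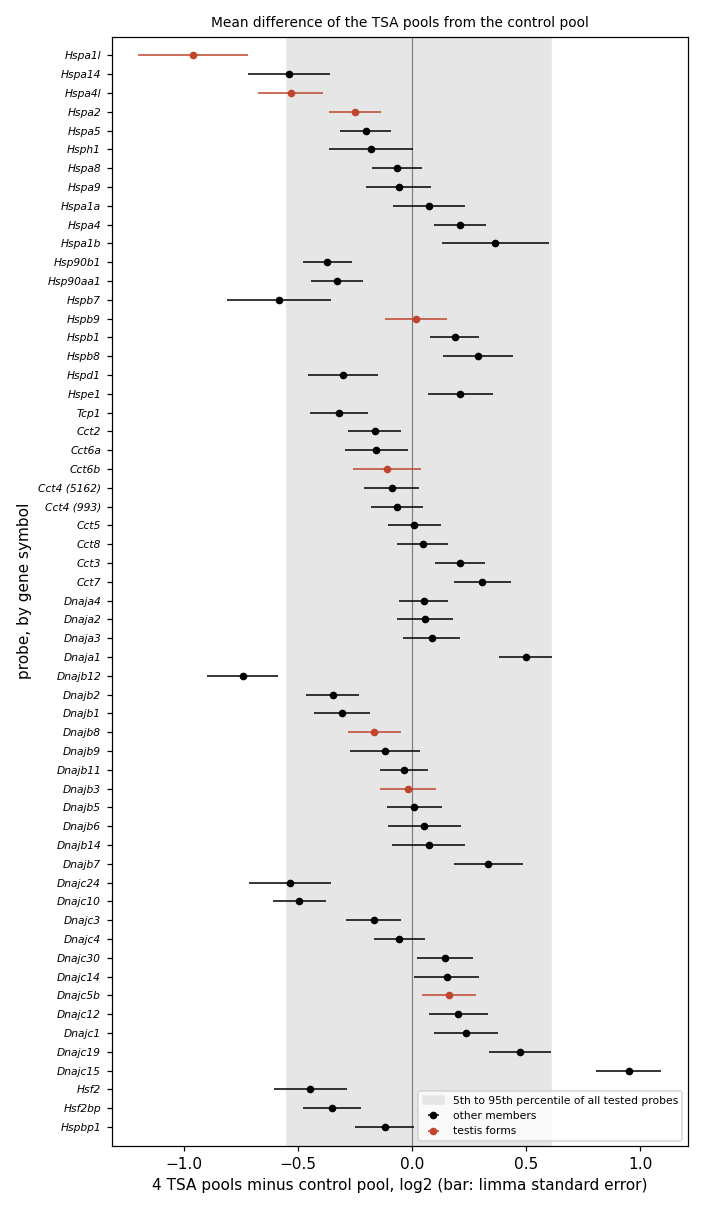
Mean difference of the 4 TSA pools from the control pool on the log2 scale (horizontal axis, bars are limma standard errors) for the 58 tested probes, grouped by family. Testis forms are red, other members black, and the grey band spans the 5th to 95th percentile of all 7422 probes (-0.55 to 0.61). Hspa1l, Dnajb12 and Hspb7 lie below the band and Dnajc15 above it.

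Of the 3 listed Hsp90 genes, 2 were measured, Hsp90aa1 and Hsp90b1, and both were below the control on all 8 TSA arrays. Hsp90ab1 was not analysed here. Hsp90aa1, a cytosolic form needed for spermatogenesis, read 84.5 and 68.7 on the control arrays, 60.0 and 62.4 at 2.5 h, 60.5 and 53.7 at 5 h, 60.3 and 64.0 at 7.5 h, and 60.3 and 65.2 at 10 h. The duplicate control arrays lay further apart than those of any TSA pool. Hsp90b1, the form of the endoplasmic reticulum, read 64.0 and 57.5 on the control arrays, 47.3 and 45.9 at 2.5 h, 44.6 and 47.6 at 5 h, 48.4 and 43.9 at 7.5 h, and 49.4 and 48.2 at 10 h. Its TSA arrays lay close together at all 4 times. Mean differences were -0.33 ± 0.11 (limma, adjusted p = 0.127) for Hsp90aa1 and -0.37 ± 0.11 (limma, adjusted p = 0.0913) for Hsp90b1, and neither passed 0.05. Without the first control array the difference of Hsp90aa1 was -0.18. Hsp90b1 passed in 5 and Hsp90aa1 in 3 of 23 alternatives, which for both include fits that count technical duplicates as samples.

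Among the DnaJ genes, Dnajc15 rose. It encodes a J protein of the mitochondrial inner membrane (chromosome 14, probe 7447). Its intensity was 11.3 and 11.6 on the control arrays, 18.6 and 21.1 at 2.5 h, 22.1 and 22.3 at 5 h, 24.9 and 24.5 at 7.5 h, and 22.8 and 21.0 at 10 h. All TSA arrays were above both control arrays, with the peak at 7.5 h. The log2 folds were 0.79 ± 0.09, 0.96 ± 0.017, 1.11 ± 0.019 and 0.94 ± 0.06, and it was 2.16-fold higher at 7.5 h. The mean difference was 0.95 ± 0.14 (limma, adjusted p = 0.0439), higher in 4 of 4 TSA pools. The trend did not pass (limma, adjusted p = 0.126). The call ended with no filter on dim probes (adjusted p = 0.125) and without the 2.5, 5, 7.5 or 10 h pool (0.0564, 0.0910, 0.103 and 0.0598), while the estimate stayed between 0.90 and 1.003. It ended as well without the second 2.5 h array (0.0597), the first or second 7.5 h array (0.0659 and 0.0550) or the first 10 h array (0.0532).

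Dnajc19, whose product is like that of Dnajc15 a J protein of the import motor of the inner membrane, was on the same side. It read 10.9 and 11.3 on the control arrays, 15.2 and 14.7 at 2.5 h, 15.1 and 14.8 at 5 h, 14.7 and 14.2 at 7.5 h, and 18.4 and 16.3 at 10 h. The TSA arrays were all above the control arrays and highest at 10 h. Its mean difference was 0.47 ± 0.14 (limma, adjusted p = 0.0891), above the 0.05 limit. The mitochondrial Hsp70 gene Hspa9, whose product these J proteins serve, stood at -0.058, and Grpel1 and Grpel2, which encode its exchange factors, at -0.11 and 0.25. Dnaja1, a cytosolic partner of Hsp70, read 29.4 and 32.9 on the control arrays, 40.2 and 43.0 at 2.5 h, 44.1 and 44.5 at 5 h, 46.8 and 46.9 at 7.5 h, and 42.3 and 44.3 at 10 h. It too was above the control on all 8 TSA arrays, with a mean difference of 0.50 ± 0.12 (limma, adjusted p = 0.0629). It passed in 7 of 23 alternatives, which include fits that count technical duplicates as samples. The other Dnaja genes lay near 0, with mean differences of 0.058 for Dnaja2, 0.087 for Dnaja3 and 0.051 for Dnaja4.

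Several other DnaJ genes stood lower without passing the test. Dnajb12, a J protein of the endoplasmic reticulum membrane, read 1.15 and 1.08 on the control arrays, 0.740 and 0.686 at 2.5 h, 0.708 and 0.705 at 5 h, 0.714 and 0.656 at 7.5 h, and 0.598 and 0.540 at 10 h. Every TSA array was below both control arrays and the 10 h arrays were the lowest. Its log2 fold at 10 h was -0.97 ± 0.087, just short of the 2-fold limit, and its mean difference -0.74 ± 0.15 (limma, adjusted p = 0.0526). It passed in 6 of 22 alternatives, 1 of them with an offset, where the difference was -0.47. The passes include fits that count technical duplicates as samples. Dnajb2, a J protein with ubiquitin-binding motifs, had pool means of 2.76 in the control pool and 2.27, 2.25, 2.12 and 2.05 at 2.5, 5, 7.5 and 10 h, with a mean difference of -0.35 ± 0.12 (limma, adjusted p = 0.121). Dnajb1, the main heat-inducible J protein, had pool means of 8.99 in the control pool and 7.67, 7.54, 7.27 and 6.67 at 2.5, 5, 7.5 and 10 h, with a mean difference of -0.31 ± 0.12 (limma, adjusted p = 0.165). Both were lowest at 10 h, with all TSA arrays below the control. Dnajc10, which encodes a reductase of the endoplasmic reticulum, was lowest at 2.5 h, with pool means of 2.34 in the control pool and 1.56, 1.68, 1.75 and 1.69 at 2.5, 5, 7.5 and 10 h and a mean difference of -0.49 ± 0.11 (limma, adjusted p = 0.0629). Dnajc24, a gene of diphthamide synthesis, was dim, with pool means of 0.534 in the control pool and 0.392, 0.420, 0.307 and 0.366 at 2.5, 5, 7.5 and 10 h and a mean difference of -0.54 ± 0.18 (limma, adjusted p = 0.121), or -0.25 with an offset. Of the 26 tested DnaJ probes, 15 had mean differences above 0 and 11 below.

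**Figure D4:**
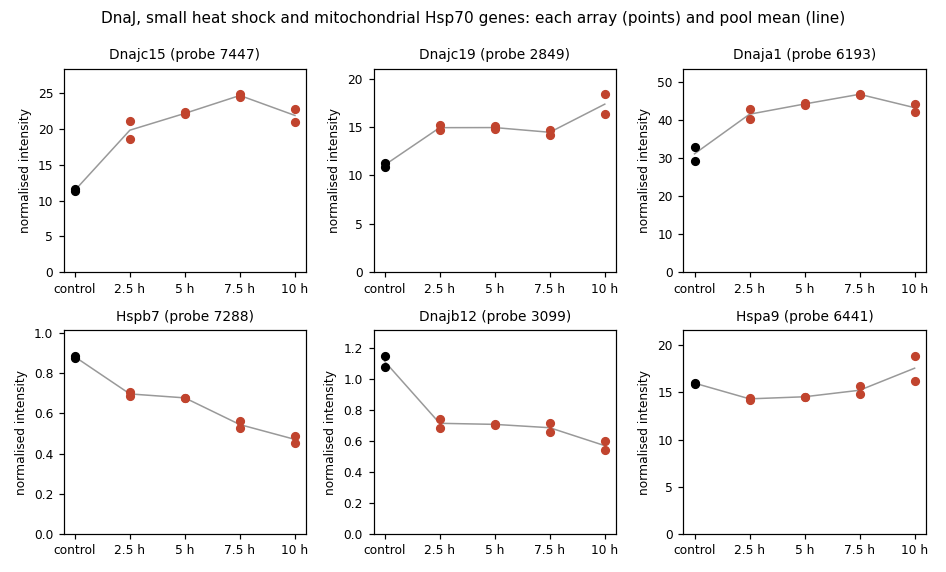
Normalised intensity (linear axis from 0) of 6 genes on each array, as points, against pool, with a line through the pool means. Control points are black and TSA points red. Dnajc15, Dnajc19 and Dnaja1 lie above the control points in every TSA pool, Hspb7 and Dnajb12 lie below them and are lowest at 10 h, and Hspa9 stays near its control level.

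The TRiC chaperonin showed no common direction. Of its 10 probes 4 were above and 6 below 0 in mean difference, with a median of -0.077, and 0 passed the test. Tcp1, which encodes the alpha subunit, read 35.0 and 30.7 on the control arrays, 26.4 and 23.3 at 2.5 h, 25.1 and 24.3 at 5 h, 26.7 and 29.2 at 7.5 h, and 26.1 and 29.8 at 10 h. It was below the control on all 8 TSA arrays, with a mean difference of -0.32 ± 0.13 (limma, adjusted p = 0.162). Cct7 read 15.0 and 16.8 on the control arrays, 22.5 and 19.9 at 2.5 h, 20.9 and 19.9 at 5 h, 18.7 and 18.5 at 7.5 h, and 18.3 and 19.0 at 10 h, above the control on all 8, with a mean difference of 0.31 ± 0.12 (limma, adjusted p = 0.165), and Cct3 was likewise above on all 8, with a mean difference of 0.21 ± 0.11 (limma, adjusted p = 0.250). Cct5 and Cct8 also had estimates above 0. The remaining subunits had mean differences of -0.16 (Cct2), -0.066 (Cct4, probe 993), 0.01 (Cct5), -0.16 (Cct6a), -0.11 (Cct6b) and 0.047 (Cct8). The 2 probes of Cct4 had similar estimates (-0.089 for probe 5162), but probe 5162 was close to the filter limit and its TSA arrays lay on both sides of the control.

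Hspd1 and Hspe1, the Hsp60 and Hsp10 of the mitochondrial chaperonin, lie head to head around the cores shown above. Hspd1 read 2.03 and 2.14 on the control arrays, 1.87 and 1.95 at 2.5 h, 1.73 and 1.67 at 5 h, 1.43 and 1.52 at 7.5 h, and 1.74 and 1.68 at 10 h. All its TSA arrays were below the control, lowest at 7.5 h. Hspe1 read 19.2 and 20.0 on the control arrays, 25.4 and 26.3 at 2.5 h, 22.0 and 22.2 at 5 h, 21.8 and 19.9 at 7.5 h, and 24.8 and 20.4 at 10 h, highest at 2.5 h and with 1 array at 7.5 h inside the control range. Mean differences were -0.30 ± 0.15 (limma, adjusted p = 0.248) for Hspd1 and 0.21 ± 0.14 (limma, adjusted p = 0.369) for Hspe1. The estimates had opposite signs, and neither passed the test.

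Of the small heat shock genes, Hspb7, known for its expression in heart and skeletal muscle, fell with time. It read 0.887 and 0.877 on the control arrays, 0.689 and 0.706 at 2.5 h, 0.679 and 0.676 at 5 h, 0.563 and 0.526 at 7.5 h, and 0.454 and 0.487 at 10 h. All TSA arrays were below both control arrays, and each later pool was lower on both of its arrays than the one before. The slope was -0.0870 ± 0.0140 log2 units per hour (limma, adjusted p = 0.0437), and the 10 h log2 fold was -0.91 ± 0.05. The call ended with no filter on dim probes (adjusted p = 0.145), with an offset (0.0610), without the first or second 7.5 h array (0.0602 and 0.0510), and without the control, 2.5, 5, 7.5 or 10 h pool (0.183, 0.0588, 0.0712, 0.104 and 0.218). With the offset, the slope was -0.0487 and the 10 h log2 fold -0.51, and with centring by bins of probe number the 10 h fold was -1.06, past the 2-fold rule. The slope was negative in each of these alternatives. Hspb8, a partner of BAG3, had pool means of 0.949 in the control pool and 1.16, 1.20, 1.01 and 1.29 at 2.5, 5, 7.5 and 10 h, with a mean difference of 0.29 ± 0.15 (limma, adjusted p = 0.261), and Hspb1 had one of 0.19 ± 0.11 (limma, adjusted p = 0.301).

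Of the 5 listed heat shock factors, 2 had probes found by the pattern, Hsf2 and Hsf4, and Hsf4 was left out as dim. Hsf1, Hsf3 and Hsf5 were not analysed here. The 1 tested was Hsf2, the form known for its role in spermatocytes. It read 1.70 and 1.68 on the control arrays, 1.26 and 1.10 at 2.5 h, 1.34 and 1.35 at 5 h, 1.15 and 1.01 at 7.5 h, and 1.29 and 1.47 at 10 h. All TSA arrays were below both control arrays, lowest at 7.5 h and 2.5 h, with a mean difference of -0.44 ± 0.16 (limma, adjusted p = 0.138). Hsf2bp, whose product binds HSF2 and acts in meiotic recombination, had pool means of 4.72 in the control pool and 4.11, 3.48, 3.68 and 3.62 at 2.5, 5, 7.5 and 10 h, with a mean difference of -0.35 ± 0.13 (limma, adjusted p = 0.138). Hspbp1, an exchange factor of Hsp70, stood at -0.12 ± 0.13 (limma, adjusted p = 0.572).

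Related genes of the same pathways gave few calls as well. Of 19 listed heat-inducible genes 17 were tested, 11 of them members of the families above, and 0 passed either test, where 3.53% of all probes passed the TSA test and 2.01% the trend. Their median mean difference was -0.18, with 7 above and 10 below 0. Bag3, a co-chaperone induced by heat, had pool means of 0.986 in the control pool and 0.719, 0.639, 0.611 and 0.656 at 2.5, 5, 7.5 and 10 h, which gave -0.59 ± 0.13 (limma, adjusted p = 0.0563). Of the genes of endoplasmic reticulum stress, 19 probes were tested and 1 fell in the trend, against 1.66% of all probes, Pdia6, which encodes a disulphide isomerase, at -0.0982 ± 0.0163 per hour (limma, adjusted p = 0.0437). Hyou1, the Hsp110 form of the endoplasmic reticulum, stood at -0.47 ± 0.15 (limma, adjusted p = 0.112) and at -0.15 with an offset, and Dnajc10 was given above. For this list 13 estimates were below 0 and 6 above. Of the co-chaperones and prefoldin subunits, 30 were tested, with 20 estimates below 0 and 10 above, and 2 of 30 fell in the trend, against 1.66% of all probes. Trap1, the mitochondrial Hsp90, had pool means of 4.16 in the control pool and 3.31, 2.68, 2.31 and 2.03 at 2.5, 5, 7.5 and 10 h and fell at -0.103 ± 0.0135 per hour (limma, adjusted p = 0.0230). Sil1, an exchange factor of HSPA5, had pool means of 8.64 in the control pool and 6.44, 6.04, 5.17 and 4.55 at 2.5, 5, 7.5 and 10 h and fell at -0.0867 ± 0.0145 per hour (limma, adjusted p = 0.0437). Their pool means were lower at each later time. The calls of Pdia6, Trap1 and Sil1 all ended with no filter on dim probes (adjusted p = 0.149, 0.103 and 0.149). They also ended when any 1 of the 5 pools was left out, where the highest adjusted p, each without the 10 h pool, were 0.228, 0.158 and 0.197. Those of Pdia6 and Sil1 ended without either 7.5 h array, and that of Sil1 without the first 10 h array (0.0572). Bag3 is on this list too. None of the 3 lists had a probe that passed the test of TSA pools against control, where 3.53% of all probes did. By the 2-fold rule 1 probe of the endoplasmic reticulum list and 1 of the co-chaperone list were lower at 10 h. At that time 1.44% of all probes were lower. The rule was met by 0 heat-inducible genes at any time. Of all 7422 probes, 3867 estimates were below 0 and 3555 above.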

How the data were processed

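Testis RNA of 15 mice in 5 pools was read on 10 CodeLink 1-channel arrays, per the labels' protocols. The deposited values are normalised intensity on a linear scale. The sorted values of the arrays are identical (largest difference 0), so they were quantile normalised. The sources used here do not name the scanner program, background correction or spot flags. Symbols came from the platform table, and 66 of 66 member probes matched the mouse gene table. Intensities under the 5th percentile (0.0364) were raised to it, turned to log2, and shifted to a common array median. Probes in the lowest 25% by mean were left out (7422 kept). limma 3.58.1 (R 4.3.3) was fitted on the 5 pool means over all kept probes (3 residual degrees of freedom, two-sided, Benjamini-Hochberg). The methods were run on simulated data in which all 5 pools had the same spread. The assumption made for the lone control pool was therefore not tested. Genes were named if testis forms, called, leading a family by mean difference or on a fixed list. Hspa4, Hspa9, Hsph1, Hspb1, Dnaja2, Dnaja4, Dnajb1, Dnajb7, Dnajc10, Dnajc19, Grpel1, Grpel2 and Tcp11 were picked after their values were seen. Members and lists were chosen with earlier results of these data known. Alternatives are in the closing section. Figures used matplotlib 3.10.9 in Python 3.11.15.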

Additional observations from a re-analysis of the deposited data

How the results depend on the processing

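Counts of chaperone probes that met a rule were small and moved with the processing. The 2-fold rule was met by 0, 0, 2 and 1 probes at 2.5, 5, 7.5 and 10 h, by 6, 5, 7 and 6 at 1.5-fold (7.57%, 9.84%, 11.8% and 16.5% of all probes), and by 0 at 7.5 and 10 h at 3-fold (0.216% and 0.391%). At 10 h the count was 2 with no filter (4.63% of all probes) or after centring by bins of probe number (2.49%), and 0 with an offset (0.404%). Leaving out 1 array gave 0 at 2.5 and 5 h, 2 at 7.5 h and 1 to 3 at 10 h (2 without the second control array or the second 10 h array, 3 without the first 10 h array). The test of TSA pools against control called 1 (3.53% of all probes), and 0 with no filter (0.0101%), 6 with the lowest 50% left out (11.6%), 7 with an offset (5.77%), 9 with eBayes with trend and robust (10.7%), 11 with the pool as a random block (14.1%), 24 on the 10 arrays (35.8%) and 0 with any 1 TSA pool left out (0.0404% to 0.0943%). Leaving out 1 array gave 0 to 3 (3 without the second control array, with 6.67% of all probes). The trend called 1 (2.01%), and 0 with no filter (0%), an offset (1.7%) or any 1 pool left out (0% to 0.552%), 2 with the lowest 50% left out (3.62%) or with centring (3.35%), 3 with eBayes with trend and robust (3.89%), 5 with the random block (9.69%) and 16 on the 10 arrays (31.7%). With the lowest 50% left out, Hspb7 was not among the probes tested, and the 2 calls were Hspa1l and Hspa14. Leaving out 1 array gave 0 to 1, with 0 without either 7.5 h array. With the replicate block the 10 arrays gave 21 (32.2%) and 16 (28.4%). Fits on the 10 arrays count technical duplicates as samples. Over 10 pairs of pools, arrays with the same number had deviations with correlations from -0.187 to 0.14, so the numbers do not pair arrays. No called value of a named gene changed sign. No count moved without the floor. The number of arrays limits the precision, and the cause of these moves was not tested.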
